A study of Mus musculus with 6 samples.

Results

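Translation factors and aminoacyl-tRNA synthetases carry out protein synthesis, and 67 of the 11779 genes in a count table of mouse long-term hematopoietic stem cells encode such proteins or their close regulators. The 67 were chosen by gene symbol alone: initiation factors (symbols of the eIF1, eIF2, eIF2B, eIF3, eIF4, eIF5 and eIF6 families), elongation factors (eEF1 and eEF2 families), and the cytosolic tRNA synthetases. The rule uses no measured value, but it was set with earlier results of these data known. Both groups of mice were female, aged 8 weeks, and carried 1 floxed copy of Myc (c-Mycfl/+), which encodes c-MYC, a transcription factor that drives cell growth. The HET group (c-Mycfl/+Mx1Cre, n = 3 libraries) also carried Mx1-Cre, a Cre recombinase transgene under the Mx1 promoter, which responds to interferon. The WT group (c-Mycfl/+, n = 3 libraries) had no Cre. Deletion was induced with poly(I:C), a synthetic double-stranded RNA that elicits interferon, given 3 times at a dose of 6 mg/kg, and whether WT mice were also injected is not stated separately. The libraries are numbered 1, 3 and 4 in each group. In the sample titles the HET libraries are named KO, whereas their genotype label gives one floxed and one wild-type copy. Because the labels do not say that each library came from a separate mouse, p-values measure the spread between libraries, which may be partly technical.

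Sequencing gave 9886223, 4627452 and 5054028 counts in HET 1, 3 and 4, and 5512100, 5600856 and 4249490 counts in WT 1, 3 and 4. Myc measured 294, 387 and 372 CPM (counts divided by the TMM-scaled library size, per 1e6) in HET 1, 3 and 4, and 447, 427 and 542 CPM in WT 1, 3 and 4, without overlap between the groups. The fold change of Myc was -0.43 ± 0.12 on the log2 scale (SE), its edgeR adjusted p was 0.312, and an exact two-sided permutation test gave p = 0.1, the smallest that 3 against 3 libraries allow. All 10 listed markers of long-term stem cells had counts, with summed levels of 2526.6 to 2965.5 CPM in HET and 2662.1 to 2987.7 CPM in WT libraries. Megakaryocyte markers (7 of 8 in the table) summed to 1025.4 to 1249.1 CPM in HET and 884.9 to 908.9 CPM in WT, without overlap. Neutrophil and monocyte markers (12 of 12) summed to 357.7 to 623.0 CPM in HET and 280.5 to 809.7 CPM in WT, the highest value being that of WT 3. Erythroid markers (6 of 10) summed to 59.4 to 88.9 CPM in HET and 58.4 to 86.7 CPM in WT, B lineage markers (4 of 8) to 20.1 to 21.4 CPM in HET and 15.2 to 23.4 CPM in WT, and T and NK lineage markers (3 of 8) to 18.5 to 30.0 CPM in HET and 12.9 to 22.5 CPM in WT. Whether any marker was at 0 in all libraries could not be tested, because every gene in the table had at least 1.01 CPM in more than 1 library. Listed markers missing from the table, among them Cd3e and Pax5, were not analysed here. The part these cells had in the values below was not tested.

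Translation begins when the small ribosomal subunit, carrying eIF1, eIF1A, eIF3 and the initiator tRNA held by eIF2, is brought to the mRNA cap by the eIF4 complex. Elongation then proceeds by delivery of charged tRNAs by eEF1A and movement of the ribosome by eEF2, while tRNA synthetases attach each amino acid to its tRNA. Many of these genes are known as targets of MYC in growing cells, whereas long-term stem cells are mostly quiescent and are known for a low rate of protein synthesis.

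None of the 67 genes passed an edgeR adjusted p of 0.05 in the comparison of HET with WT, against 28 of the 10869 genes tested (0.258%), of which 24 were lower in HET (0.221% of genes) and 4 higher (0.0368% of genes). DESeq2 and limma-voom also called 0 of them. At an unadjusted edgeR p under 0.05 there were 6 of the 67 (8.96%), with a background of 5.22%. Of the 6, 5 were lower in HET (background 3.19%), and Mars was higher (background 2.02%). In all, 47 of the 67 genes (70.1%) had negative fold changes, where 49.3% of all genes tested had them. The median log2 fold change was -0.05 over the 67 genes and 0.00 (0.004) over all genes. By role, all 6 genes of the eEF1 and eEF2 families, 33 of 41 initiation factor rows and 8 of 19 tRNA synthetases were negative. The 6 include Eef1e1, which encodes a scaffold protein of the multisynthetase complex. Eef2k, a kinase gene matched by the same symbol rule, was kept apart from the 6 and was positive (0.14). The 41 rows were matched by symbol and include Eif1ad, Eif4a3 and Eif4enif1, which were classed as encoding no translation factor. The difference between roles was not tested, and 12 of 19 synthetases were negative without HET 1 and 10 of 19 without WT 1. Over the 67 genes, 28 turned sign in at least 1 of the 6 fits that each left out a library, 11 of them synthetases. In bulk RNA, a lower count from fewer cells of one type and a lower count per cell cannot be told apart.

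**Figure D1:**
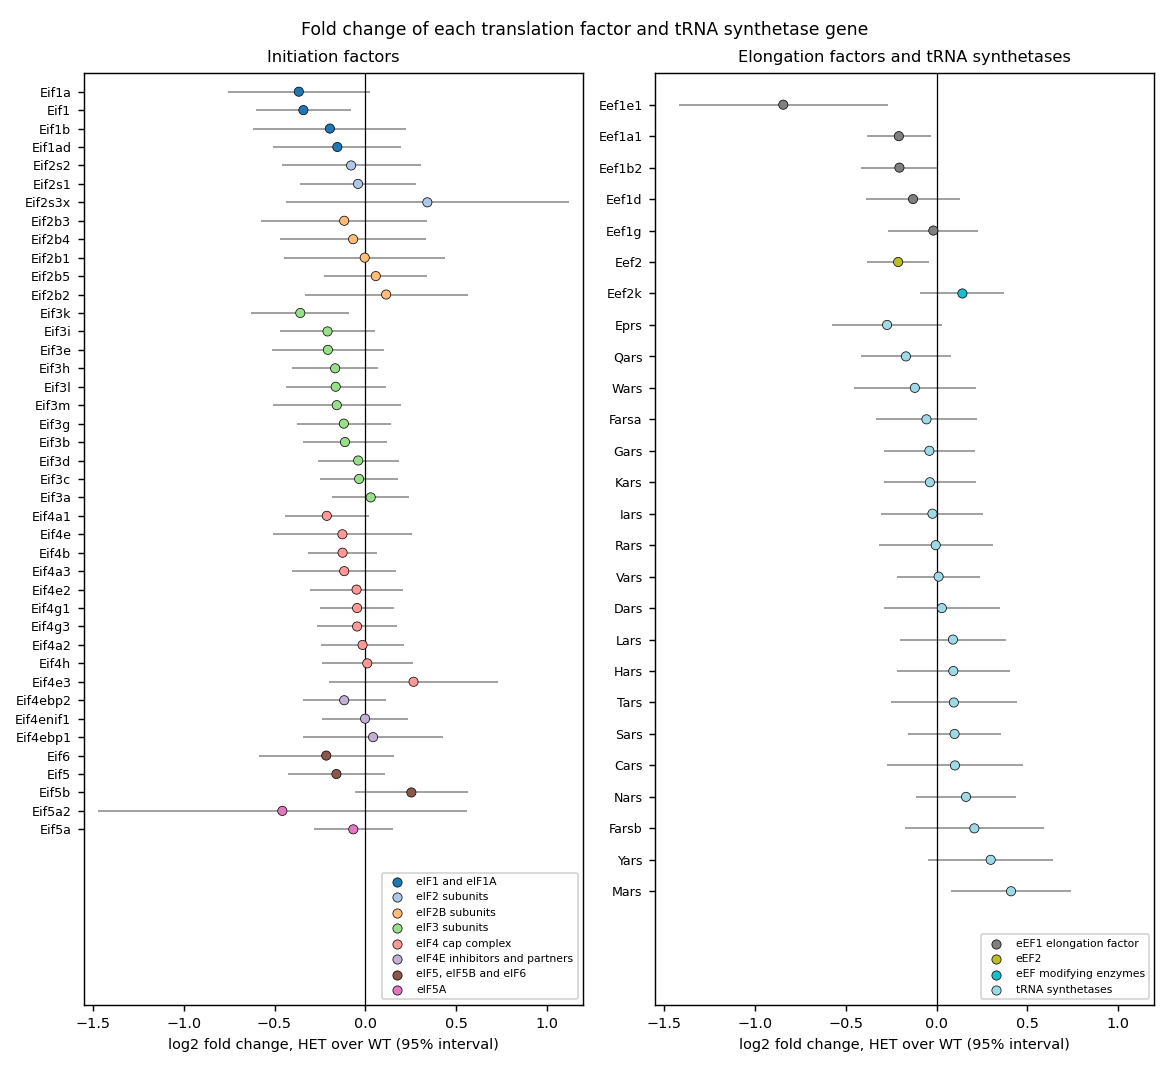
Log2 fold change of each of the 67 genes, HET over WT, with its 95% interval from the edgeR fit (n = 3 libraries each); points are coloured by role and sorted within it. The 6 genes classed in the eEF1 and eEF2 families lie left of 0, while Eef2k and 11 of 19 tRNA synthetases lie right of it. Most intervals include 0.

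The precision of these estimates was set by the depth and by the spread between libraries. All but 3 of the genes had at least 100 counts in every library, and counts ran from 14 (Eif5a2 in HET 3) to 33325 (Eef2 in HET 1). The median standard error was 0.13 on the log2 scale. For 47 of the 67 genes the 95% interval of the log2 fold change lay between -0.5 and 0.5. For 46 its lower bound lay above -0.43, the point estimate of Myc. The 95% interval of Myc itself ran from -0.687 to -0.172, and whether these genes changed less than Myc was not tested. For 65 genes the interval excluded a decrease of 1 log2 unit, the exceptions being Eef1e1 and Eif5a2.

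In 9 of the 67 genes (13.4%) all HET libraries lay below all WT libraries, where 5.64% of all genes tested did so. The 9 were Eef1e1, Eef1a1, Eef2, Eif1, Eif1a, Eif3h, Eif4a1, Eif4b and Qars. Only Mars (1.49% of the 67) had all HET libraries above all WT libraries, against a background of 4.69%, and 10.3% of all genes tested did not overlap in either direction. Leaving out a library can only make separation easier, for members and for all other genes. Without HET 1, 21 of the 67 genes lay below all WT libraries (background 12.3%) and 3 above (background 11.8%). The count below was 16 without WT 1 (background 11.9%) and 15 without WT 4 (background 9.21%), and the count above reached 6 without HET 3 (background 9.91%) and 3 without HET 4 (background 8.56%), WT 1 (background 11.4%) or WT 3 (background 9.04%). The median over the 67 genes was -0.125 without HET 1 and -0.075 without WT 1.

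**Figure D2:**
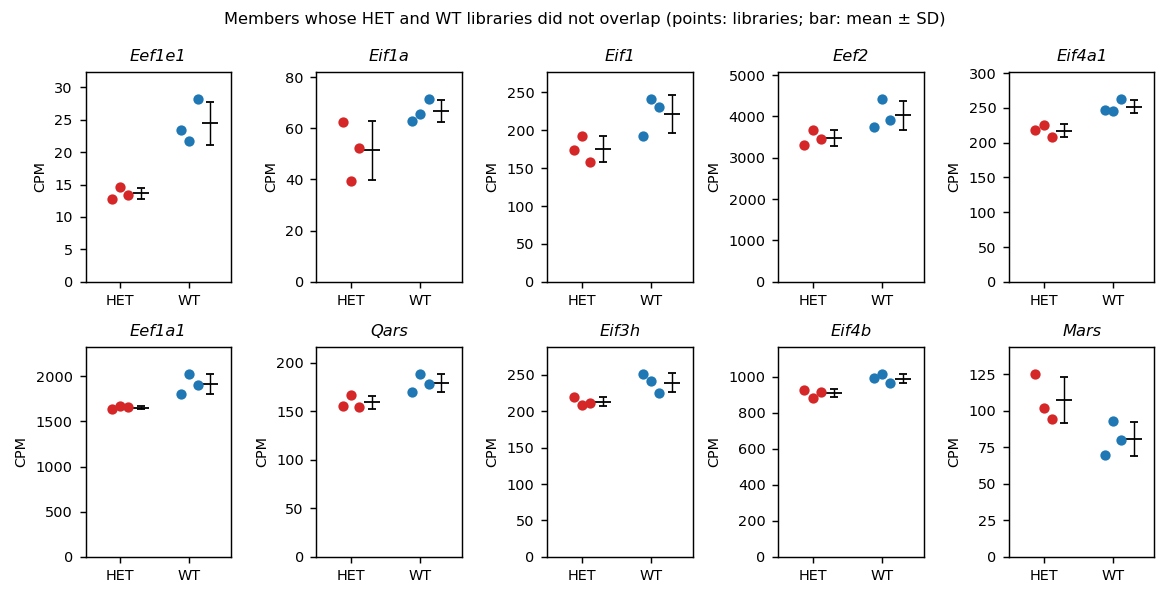
CPM of the 10 genes whose HET and WT libraries did not overlap, with 1 point per library, the mean ± SD beside them (n = 3 each) and an axis from 0 in each panel. Eef1e1 shows the widest relative gap, while in Eif1, Eif1a and Mars the nearest HET and WT libraries almost touch.

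Several of these genes carry in their promoter the hexamer CACGTG, the canonical E-box to which MYC with its partner MAX binds. Promoter windows of 250 bases before to 50 bases after the transcript start were matched for 50 of the 67 genes (RefSeq, GRCm38.p6). The motif, which reads the same on both strands, was found in 14 of the 50 (28.0%), compared with 12.2% of the 8769 tested genes with a window and 8.09% of all 27025 genes with a window. Shown here are the 250 bases upstream of the start for 4 genes described below, chosen because they hold the motif and encode an elongation factor, an eIF3 subunit, the cap-complex helicase and the cap-binding protein itself, with the motif in capitals.
Eef2 (chr10:81176381-81176630, plus strand): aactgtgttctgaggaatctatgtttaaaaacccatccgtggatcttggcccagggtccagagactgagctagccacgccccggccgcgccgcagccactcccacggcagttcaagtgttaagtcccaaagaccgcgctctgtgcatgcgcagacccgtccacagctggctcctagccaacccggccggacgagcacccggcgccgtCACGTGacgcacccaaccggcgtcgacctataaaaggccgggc
Eif3k (chr7:28981889-28982138, minus strand): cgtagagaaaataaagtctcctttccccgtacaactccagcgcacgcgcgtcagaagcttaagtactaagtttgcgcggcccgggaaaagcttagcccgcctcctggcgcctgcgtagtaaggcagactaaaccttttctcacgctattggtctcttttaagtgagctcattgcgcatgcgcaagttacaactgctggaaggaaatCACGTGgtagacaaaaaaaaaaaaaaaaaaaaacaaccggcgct
Eif4a1 (chr11:69672424-69672673, minus strand): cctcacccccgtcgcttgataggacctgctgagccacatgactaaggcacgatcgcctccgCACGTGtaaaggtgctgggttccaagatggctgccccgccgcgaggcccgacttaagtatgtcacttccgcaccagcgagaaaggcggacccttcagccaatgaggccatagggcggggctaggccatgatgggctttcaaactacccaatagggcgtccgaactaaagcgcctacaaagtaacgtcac
Eif4e (chr3:138527018-138527267, plus strand): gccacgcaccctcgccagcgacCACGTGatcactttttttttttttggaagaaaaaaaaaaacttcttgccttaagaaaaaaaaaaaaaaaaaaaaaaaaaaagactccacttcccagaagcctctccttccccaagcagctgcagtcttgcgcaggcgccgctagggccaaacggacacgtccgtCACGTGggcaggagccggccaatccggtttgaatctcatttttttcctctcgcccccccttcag
The window of Eif4e is that of a second annotated start inside the gene, and the window at its first start held no motif. The motif began 43 bases upstream of the start in Eef2, 44 in Eif3k and 189 in Eif4a1, and Eif4e held it at 228 and 64 bases. Fold changes of genes with and without the motif had close medians. With the motif, the median log2 fold change over 14 genes was -0.06 and 9 values were negative. Without it, the median over 36 genes was -0.05 and 28 values were negative. Of the 9 genes whose HET libraries all lay below WT, 7 had a window and 2 of these, Eef2 and Eif4a1, held the motif. A match describes these letters only, and binding was not measured.

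Apart from the kinase gene Eef2k, the 6 genes of the eEF1 and eEF2 families all had negative fold changes, none past the adjusted threshold. The fold change of Eef1g turned positive in 2 of the 6 fits that left out a library. Eef2 (ENSMUSG00000034994; GRCm38 chromosome 10, 81176631 to 81182498, plus strand), which encodes the GTPase that moves the ribosome along the mRNA, was the most abundant of the 67 genes per transcript length. It measured 3306, 3670.5 and 3457 CPM in HET 1, 3 and 4, and 3753, 4416 and 3919 CPM in WT 1, 3 and 4. All 3 HET libraries were below WT, and HET stood at 86.3% of WT (95% interval 76.6% to 97.3%), a log2 fold change of -0.21 ± 0.08 (SE) with an edgeR adjusted p of 0.785. Eef1a1 (ENSMUSG00000037742; chromosome 9, 78478449 to 78489151, minus strand), whose product delivers charged tRNAs, gave nearly the same ratio. It had 1634, 1672 and 1658 CPM in HET 1, 3 and 4, and 1800.3, 2023 and 1909 CPM in WT 1, 3 and 4. The HET libraries lay close together, with an SD of 19.0 CPM in HET and 112 CPM in WT, and the log2 fold change was -0.21 ± 0.09 (SE; edgeR adjusted p = 0.821). Eef1a1 has many processed pseudogenes, so its level is uncertain where reads were shared.

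The exchange factor subunits of eEF1B, which recharge eEF1A with GTP, had smaller or less separated differences, none at an unadjusted edgeR p under 0.05. Eef1b2 measured 683, 686 and 715.0 CPM in HET 1, 3 and 4, and 824, 868 and 710.4 CPM in WT 1, 3 and 4, where only WT 4 reached down into the HET range (log2 fold change -0.20 ± 0.10 SE). Eef1d averaged 205 ± 23.9 CPM in HET and 224 ± 17.8 CPM in WT, and the structural subunit Eef1g 194 ± 2.02 CPM in HET and 197 ± 19.8 CPM in WT (SD, n = 3 each). Their intervals ran from -0.39 to 0.13 and from -0.27 to 0.23 on the log2 scale. Annotated exons of Eef1d overlap those of Naprt on the same strand by 277 bases, so its counts are uncertain. The sum over the 6 genes of the eEF1 and eEF2 families was 6044, 6459 and 6218 CPM in HET 1, 3 and 4, and 6780, 7780 and 7000 CPM in WT 1, 3 and 4. Eef2 and Eef1a1 supply most of that sum.

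Eef1e1 (ENSMUSG00000001707; chromosome 13, 38644207 to 38659058, minus strand) had the largest negative fold change and the smallest p of the 67 genes. Despite its symbol it encodes AIMP3, a scaffold protein of the multisynthetase complex that is also known in DNA damage signalling. It measured 12.8, 14.6 and 13.45 CPM in HET 1, 3 and 4, from 129, 67 and 69 counts. In WT 1, 3 and 4 it measured 23.45, 21.8 and 28.1 CPM, from 130, 119 and 118 counts. The groups did not overlap, and HET stood at 55.7% of WT (95% interval 37.4% to 83.0%). The log2 fold change was -0.84 ± 0.28 (SE; edgeR adjusted p = 0.511), and it lay between -0.92 and -0.73 in the 6 fits that each left out 1 library. Both other scaffold genes of the complex, Aimp1 and Aimp2, also had negative values, as did 49.3% of all genes tested. Of the 3 genes, Eef1e1 included, 0 passed, and the median was -0.24. Their smallest adjusted p in edgeR was that of Eef1e1 itself. The kinase that inhibits eEF2 by phosphorylation, Eef2k, ran the other way from Eef2 without passing. It averaged 436 ± 38.0 CPM in HET and 394 ± 34.8 CPM in WT (SD, n = 3 each; log2 fold change 0.14 ± 0.11 SE), and HET 1 lay within the WT range. The fold change of Eef2k ran from 0.068 (without WT 1) to 0.210 (without HET 1) with 1 library left out.

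Among the initiation factors, all 4 rows of the eIF1 and eIF1A group had negative values, with a median of -0.27. Eif1 and Eif1a encode small proteins that keep the scanning ribosome in an open state. Eif1 (ENSMUSG00000035530; chromosome 11, 100319885 to 100322096, plus strand) encodes the factor that guards start codon selection. It measured 174, 193 and 158 CPM in HET 1, 3 and 4, and 193, 241 and 231 CPM in WT 1, 3 and 4. HET 3, at 192.8 CPM, and WT 1, at 193.0 CPM, differed by less than 1 CPM, so the groups were separated by a narrow margin. The log2 fold change was -0.34 ± 0.13 (SE; edgeR adjusted p = 0.722). Eif1a, whose product cooperates with eIF1 in scanning, measured 62.4, 39.5 and 52.2 CPM in HET 1, 3 and 4, and 63.0, 65.5 and 71.3 CPM in WT 1, 3 and 4, again with HET 1 next to WT 1. Its interval ran from -0.76 to 0.02. Eif1b and Eif1ad, the remaining rows matched by symbol, had fold changes of -0.19 and -0.15 with overlapping libraries. With 1 library left out, Eif1b ran from -0.359 to 0.004.

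The factor eIF2 brings the initiator tRNA, and eIF2B is the exchange factor that recycles it. For each of their genes, mean CPM differed between the groups by less than the HET SD. For Eif2s2, Eif2s3x and Eif2b2 it differed by more than the WT SD. Eif2s1, which encodes the alpha subunit phosphorylated by stress kinases, averaged 96.3 ± 13.6 CPM in HET and 99.4 ± 11.3 CPM in WT (SD, n = 3 each), and Eif2s2, the beta subunit, 50.6 ± 7.53 CPM in HET and 53.6 ± 2.83 CPM in WT. The gamma subunit gene Eif2s3x measured 10.4, 16.4 and 8.57 CPM in HET 1, 3 and 4, and 9.20, 9.70 and 8.82 CPM in WT 1, 3 and 4. HET 3 alone stood high, and the interval of its log2 fold change was wide, from -0.44 to 1.12. Over the 5 eIF2B genes the median log2 fold change was 0.00 (-0.003), with 3 negative and 2 positive values between -0.12 (Eif2b3) and 0.12 (Eif2b2, interval -0.33 to 0.56). That median took either sign with 1 library left out, at -0.131 without HET 3, -0.115 without WT 4 and 0.047 without WT 3, and all 5 genes turned sign in at least 1 such fit. The catalytic subunit Eif2b5 averaged 113 ± 9.38 CPM in HET and 108 ± 7.08 CPM in WT (SD, n = 3 each).

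Of the eIF3 complex, the large scaffold on the small subunit, 11 genes were tested, while Eif3f, Eif3j1 and Eif3j2 were not analysed here. Values were negative in 10 of the 11, with a median of -0.16 and 0 calls. At an unadjusted edgeR p under 0.05 there was 1 gene. That gene was Eif3k, a small subunit whose promoter is shown above. It measured 180, 212 and 192 CPM in HET 1, 3 and 4, and 205, 266 and 278 CPM in WT 1, 3 and 4. Only HET 3 lay above the lowest WT library, and the log2 fold change was -0.36 ± 0.13 (SE; edgeR adjusted p = 0.686). Eif3h, another subunit gene, measured 220, 209 and 211 CPM in HET 1, 3 and 4, and 251, 242 and 226 CPM in WT 1, 3 and 4, without overlap but with a small gap (log2 fold change -0.17 ± 0.11 SE, adjusted p = 0.995). Eif3i, a WD-repeat subunit, averaged 176 ± 7.32 CPM in HET and 203 ± 30.3 CPM in WT (SD, n = 3 each), a spread in WT that came from WT 3 at 238 CPM. The largest subunit gene, Eif3a, was the only positive one, at 0.03 with an interval from -0.18 to 0.24, and it ran from -0.022 to 0.102 with 1 library left out. The median of the complex depended on single libraries, with -0.06 and 2 positive genes without HET 4 or WT 3, and -0.20 and 0 positive genes without WT 4.

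In the group of cap-complex genes, 8 of 10 were negative and the median was -0.05. The group was formed by symbol and includes Eif4a3 (-0.12), which was classed as encoding no translation factor. The median was -0.114 without HET 1 and -0.087 without WT 4, and without HET 4 it was -0.031 with 6 negative and 4 positive genes. Eif4a1, which encodes the RNA helicase that unwinds the 5' end, measured 218, 226 and 208 CPM in HET 1, 3 and 4, and 247, 246 and 262 CPM in WT 1, 3 and 4. The groups did not overlap, and the log2 fold change was -0.21 ± 0.11 (SE; edgeR adjusted p = 0.958). Eif4b, which encodes the activator of that helicase, measured 927, 884 and 914 CPM in HET 1, 3 and 4, and 993, 1015 and 965 CPM in WT 1, 3 and 4, again without overlap and with a fold change of -0.13 ± 0.09 (SE). The closely related helicase gene Eif4a2 had 390.2 ± 41.9 CPM in HET and 394 ± 19.0 CPM in WT (SD, n = 3 each). Reads of Eif4a1 and Eif4a2 can be hard to assign, and annotated exons of both overlap small nucleolar RNA genes, those of Eif4a2 also Rfc4 on the opposite strand, so their values are uncertain.

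The cap-binding protein gene Eif4e, a textbook target of MYC with both E-boxes shown above, measured 61.1, 45.1 and 53.8 CPM in HET 1, 3 and 4, and 62.4, 62.0 and 50.6 CPM in WT 1, 3 and 4. The ranges overlapped broadly, and the interval of its log2 fold change ran from -0.51 to 0.26. Eif4g1, the scaffold of the complex, averaged 932 ± 95.2 CPM in HET and 962 ± 15.5 CPM in WT (SD, n = 3 each), with HET 1 above and both other HET libraries below every WT library. Eif4e3, a divergent cap-binding relative, had the largest positive value of the group (0.27 ± 0.22 SE) at 36.9 ± 4.03 CPM in HET and 30.6 ± 5.61 CPM in WT (SD, n = 3 each), and it shares 373 exonic bases with Gm20696 on the same strand. With 1 library left out its fold change ran from 0.12 to 0.36. The repressors that hold eIF4E away from eIF4G, Eif4ebp1 and Eif4ebp2, had fold changes of 0.04 and -0.12 with intervals from -0.34 to 0.43 and from -0.34 to 0.11, and Eif4ebp1 ran from -0.007 to 0.132 with 1 library left out. Eif4enif1, which encodes a transporter of eIF4E, averaged 196 ± 6.68 CPM in HET and 197 ± 2.42 CPM in WT, and the sign of its fold change (-0.001) turned under several settings.

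The factors that act at subunit joining pointed in both directions. Eif5b, which encodes the GTPase of subunit joining, measured 127, 155 and 134 CPM in HET 1, 3 and 4, and 143, 107 and 97.8 CPM in WT 1, 3 and 4. Only WT 1 lay among the HET libraries, and the log2 fold change was 0.25 ± 0.15 (SE; edgeR adjusted p = 0.980), or 0.433 without WT 1 and 0.147 without WT 4. Its annotated exons overlap those of Rev1 on the opposite strand by 1643 bases, so its counts are uncertain. Eif5, which stimulates GTP hydrolysis by eIF2, had -0.16 ± 0.13 (SE), and Eif6, which keeps the large subunit from joining early, had 96.5 ± 18.5 CPM in HET and 112 ± 26.5 CPM in WT (SD, n = 3 each). Eif5a, whose product carries the modified residue hypusine and helps the ribosome through difficult sequences, averaged 541 ± 47.7 CPM in HET and 567 ± 36.3 CPM in WT. Its paralog Eif5a2 had between 14 and 72 counts per library and an interval from -1.47 to 0.56, which leaves its direction undetermined at this depth.

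The tRNA synthetases had no common direction: 8 of 19 were negative, 11 were positive, and the median was 0.03. Aars was not analysed here. Mars (ENSMUSG00000040354; chromosome 10, 127296221 to 127311786, minus strand), which encodes methionyl-tRNA synthetase, was the one whose HET libraries all lay above WT. It measured 125, 102 and 94.5 CPM in HET 1, 3 and 4, and 69.6, 92.8 and 80.1 CPM in WT 1, 3 and 4. HET stood at 133% of WT (95% interval 106% to 167%), or 0.41 ± 0.16 on the log2 scale (SE), with an edgeR adjusted p of 0.754. The exons of Mars overlap those of Ddit3 on the opposite strand by 68 bases.

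Yars, for tyrosyl-tRNA synthetase, was the next positive gene, with 110, 77.4 and 116 CPM in HET 1, 3 and 4, and 76.0, 93.1 and 78.5 CPM in WT 1, 3 and 4, where HET 3 lay among the WT values (0.30 ± 0.17 SE). At the other end stood Eprs, the bifunctional glutamyl-prolyl-tRNA synthetase, with 353, 272 and 284 CPM in HET 1, 3 and 4, and 458, 310.1 and 331 CPM in WT 1, 3 and 4. WT 1 was far above both other WT libraries, HET 1 lay above WT 3 and WT 4, and the fold change was -0.27 ± 0.14 (SE). Without WT 1 the fold change of Eprs was -0.08, and in the other fits that left out a library it lay between -0.40 and -0.20. Qars, for glutaminyl-tRNA synthetase, measured 155, 167 and 155 CPM in HET 1, 3 and 4, and 170, 188 and 178 CPM in WT 1, 3 and 4, without overlap (-0.17 ± 0.12 SE, adjusted p = 0.995). Vars, for valyl-tRNA synthetase, the most abundant of the family per length, averaged 546 ± 26.5 CPM in HET and 543 ± 70.6 CPM in WT (SD, n = 3 each).

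HET 1 was the highest of the 3 HET libraries in 37 of the 67 genes, whereas over all genes tested this held for 35.1%. It was so in 14 of 19 synthetases, 7 of 10 genes of the cap complex, 6 of 11 eIF3 genes and 2 of 2 eIF5A genes. It was so in 0 of the 6 genes of the eEF1 and eEF2 families, 0 of 5 eIF2B genes and not in Eef2k. The mean log2 level of the 19 synthetases relative to the WT mean was 0.19, -0.06 and 0.00 (0.003) in HET 1, 3 and 4, against -0.06, 0.07 and 0.00 (-0.004) in WT 1, 3 and 4. The synthetase median was negative when HET 1 was left out, at -0.04 with 12 negative and 7 positive values, and also without WT 1, at -0.03 with 10 negative and 9 positive values. HET 1 was also the deepest library, with 9886223 counts, and had the highest megakaryocyte marker sum, at 1249.1 CPM. With its counts thinned to the average total of the rest, the median was 0.05. The part of depth and of marker levels in this was not tested. The 5 elongation factor genes, without Eef1e1, averaged -0.16, -0.11 and -0.18 in HET 1, 3 and 4. The WT libraries 1, 3 and 4 had -0.09, 0.11 and -0.02. HET 3, at -0.114, and WT 1, at -0.087, were separated by a narrow margin. With Eef1e1 included the HET values were -0.285, -0.215 and -0.290. Mean levels also separated for the eIF1 and eIF1A group, where HET 1 stood at -0.144 and WT 1 at -0.108. The same held for the eIF3 genes, with HET 1 at -0.086 and WT 4 at -0.044.

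**Figure D3:**
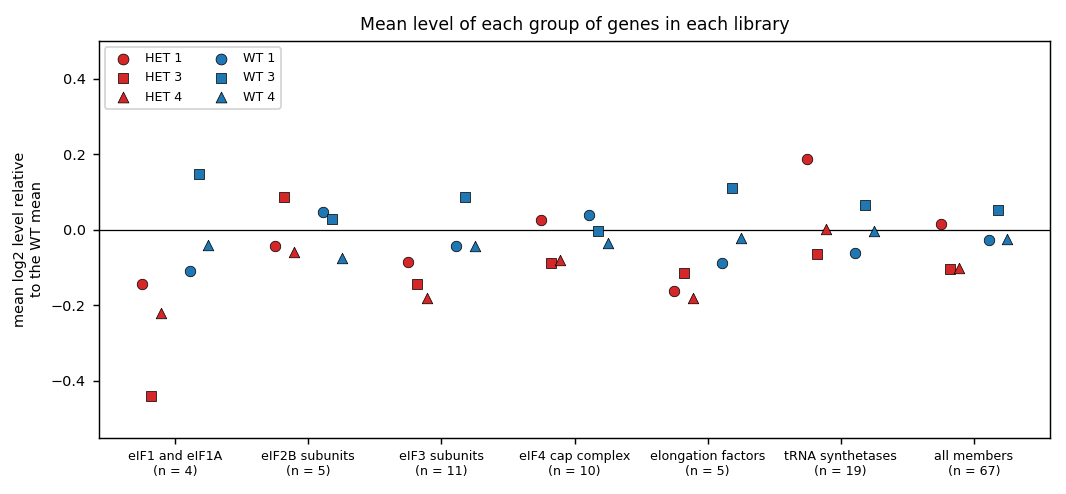
Mean log2 level of each group of genes in each library, relative to the mean of the WT libraries, with HET in red and WT in blue and 1 marker shape per library number. For the eIF1 and eIF1A genes, the eIF3 subunits and the 5 elongation factors (without Eef1e1), all HET libraries lie below all WT libraries. Each margin is narrow, that of the elongation factors being between HET 3 and WT 1. For the tRNA synthetases HET 1 stands above every other library, at 0.19.

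Per transcript length, the genes ran over a ratio of 1070 in HET and 888 in WT from the lowest to the highest. These levels are CPM per kb of the principal protein-coding transcript and assume even coverage, which the sources used here do not state. How reads shared between related genes were counted is not stated either, so levels of genes with close relatives are uncertain. Eef2 stood highest, at 1126 ± 59.3 in HET and 1304 ± 112 in WT, followed by Eef1a1 at 922 ± 10.6 in HET and 1065 ± 62.2 in WT (SD, n = 3 each). Eef1b2 (358 in HET, 413 in WT) and Eif5a (376 in HET, 394 in WT) formed the next pair, whose order was not resolved in either group, with SDs of 9.03 and 33.2 in HET and 41.9 and 25.2 in WT. Eif5a2 was the lowest, at 1.05 in HET and 1.47 in WT.

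Subunits of one complex were not at one level. The eIF3 genes ran from Eif3m, at 54.2 in HET and 60.4 in WT, to Eif3k, at 252 in HET and 322 in WT, a ratio of 4.64 in HET and 5.34 in WT. The eIF2B genes lay within a ratio of 2.33 in HET and 2.24 in WT, from Eif2b1 to Eif2b5. Of the eIF2 genes, Eif2s3x was lowest, at 3.23 in HET and 2.53 in WT, while Eif2s1 had 28.3 in HET and 29.2 in WT. In the cap complex, Eif4e (10.7 in HET, 11.7 in WT) was the lowest and Eif4b (236 in HET, 257 in WT) the highest. The synthetases ran from Cars, for cysteinyl-tRNA synthetase, at 17.2 in HET and 16.0 in WT, to Vars, at 132 in HET and 131 in WT.

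**Figure D4:**
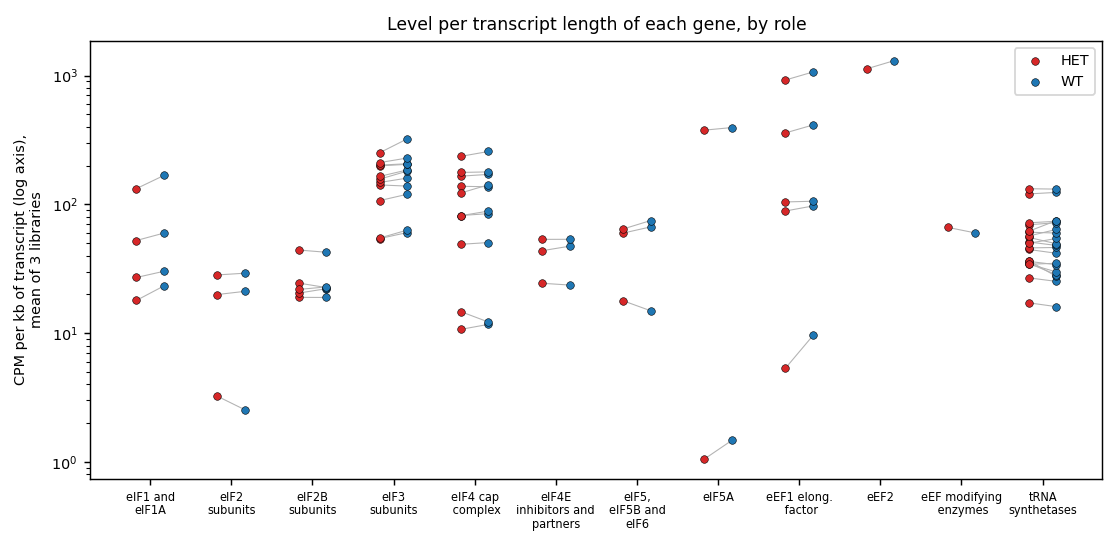
Level of each gene in CPM per kb of transcript on a log axis, by role, as the mean of 3 HET and of 3 WT libraries, with a line joining the values of a gene. Eef2 and Eef1a1 stand highest and Eif5a2 lowest, and differences between genes are far larger than those between the groups.

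Genes that act around these factors were described from lists of the same pathway. Of 11 tested genes of the integrated stress response, in which kinases phosphorylate eIF2 alpha, 1 was called lower (background 0.221%) and 0 higher (background 0.0368%) by edgeR. It was Ppp1r15a, which encodes the phosphatase subunit that reverses this phosphorylation, with 540, 699 and 525 CPM in HET 1, 3 and 4, and 796, 902 and 947.5 CPM in WT 1, 3 and 4 (log2 fold change -0.59 ± 0.12 SE, edgeR adjusted p = 0.0236). The call was lost in 4 of the 6 fits that left out a library, with an edgeR adjusted p of 0.390 without HET 4, 0.0543 without WT 1, 0.170 without WT 3 and 0.233 without WT 4, at log2 fold changes of -0.73 to -0.50 over the 6 fits. The list's median was -0.35, with 8 negative and 3 positive values, and 2 of the 11 had an unadjusted edgeR p under 0.05 (18.2%, background 5.22%). In the lists that follow no gene passed the adjusted threshold in edgeR, and counts are given at an unadjusted edgeR p under 0.05 (background 5.22%). Among 18 further translation factors 1 did (5.56%, near the background), the termination factor gene Etf1, and the median was -0.07. Etf1 averaged 155 ± 17.3 CPM in HET and 188 ± 15.7 CPM in WT (SD, n = 3 each), with an edgeR adjusted p of 0.928. Among 13 genes of mTORC1 and cap-binding control, which governs the eIF4E repressors, 0 did and the median was -0.03. The smallest p there was that of Rps6kb1, the S6 kinase gene (0.33 ± 0.19 SE).

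The mitochondrial counterparts had medians close to 0. Among 16 mitochondrial tRNA synthetases 0 had an unadjusted p under 0.05 in edgeR, with a median of 0.03, and Cars2 had the smallest p (51.3 ± 7.75 CPM in HET, 39.0 ± 1.93 CPM in WT, SD, n = 3 each; adjusted p = 0.951). Among 8 mitochondrial translation factors 0 did, with a median of 0.06 and the smallest p for Gfm2, which encodes a ribosome recycling factor (0.24 ± 0.19 SE). Of the enzymes that make the hypusine of eIF5A, Dhps and Dohh, neither passed, and Dhps averaged 17.7 ± 4.67 CPM in HET and 15.9 ± 4.24 CPM in WT.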

How the data were processed

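For each of 6 libraries the authors deposited raw gene counts as whole numbers in a single table. FastQC, STAR 2.5.2b, edgeR, limma and mm10 are named in the submitters' processing notes, with no role or order. The kit, strand setting, counter and annotation: not given in the sources used here; the protocol fields describe material of another study. Each gene in the table had at least 1.01 CPM in 2 or more libraries. Genes were filtered with filterByExpr (910 removed, 10869 left, among them all 67 members), scaled by TMM and compared with edgeR 4.0.16 in R 4.3.3 (quasi-likelihood F test, two-sided, group as the only term, Benjamini-Hochberg over all genes, threshold 0.05). The biological coefficient of variation was 20.7%. Standard errors and 95% intervals come from the F statistic. Levels use TMM-scaled CPM, and mean group levels use log2(CPM + 0.5). Positions and lengths are from GENCODE M21 (GRCm38, also called mm10), and promoters from RefSeq. Exons of 12 members overlap those of another coding gene. The script was tested on simulated counts.

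Members, lists and tests were chosen with earlier results of these data known. Genes named by rule were those of smallest p (1 per role, 3 in roles of 8 or more) and of highest level per length in each role, those whose libraries did not overlap, Myc, and the smallest p of each neighbouring list. Other members are named for their role, after their values were seen. Alternatives for Myc and other genes that are no members, and the elongation factor level without Eef1e1, were also chosen after seeing the data. Alternatives were other scalings (upper quartile, RLE), omitting the filter or requiring a mean of 50 counts, DESeq2 1.42.0 and limma-voom (limma 3.58.1). Further ones were a replicate block, HET 1 thinned, leaving out each library, and leaving out Eef2k, Eif1ad, Eif4a3 and Eif4enif1. These genes were classed as encoding no translation factor or synthetase.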

Additional observations from a re-analysis of the deposited data

How the results depend on the processing

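No member was called in any of the 14 alternative fits, where the smallest adjusted p of a member was 0.237 (Eef1e1 with DESeq2). None was called either among the 63 members left without Eef2k, Eif1ad, Eif4a3 and Eif4enif1. Those 63 still held Eef1e1 and the repressor genes Eif4ebp1 and Eif4ebp2. The number of genes called over the whole table was 59 with DESeq2 and 49 with the library number as a replicate block. Whether shared numbers pair the libraries could not be settled from correlations of deviations from the group means, with so few libraries. Same-numbered correlations were 0.112, -0.0435 and 0.072 for numbers 1, 3 and 4. HET 1 and HET 4 correlated best with the WT library of their own number, and HET 3 with WT 4 (0.111). Under the block 0 members were called and their median was -0.05. Between the 6 fits that left out 1 library, genes called ran from 10 (without HET 4) to 68 (without HET 1), with 11 without WT 1. Members called stayed at 0, members below all WT ran from 10 to 21 (9.07% to 12.3% of all genes), members above from 1 to 6 (8.56% to 11.8% of all genes), and the members' median from -0.125 to -0.032. With upper-quartile scaling 6 members lay below all WT libraries, against a background of 5.15%. Of 377 alternative values of 27 named members, 364 kept their sign. Most of the 27 were chosen from these same data for a small p or for libraries without overlap, which favours a kept sign. Over all 67 members, 28 turned sign in at least 1 fit that left out a library. Eif4enif1 turned positive with upper-quartile scaling (0.009), no filter (0.004), limma-voom (0.003) and HET 1 thinned (0.008), and the cause was not tested. In the fits that left out 1 library the log2 fold change ran from -0.072 to 0.233 for Eif2b2, -0.077 to 0.406 for Dhps, -0.003 to 0.119 for Eif2b5, -0.127 to 0.069 for Eif2s1, -0.028 to 0.028 for Eif4enif1 and -0.092 to 0.094 for Vars. The depth limits what could be seen for Eif5a2 and Eif2s3x, which had the widest intervals.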
